A study of Mus musculus with 8 samples.

Results

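Interferon-stimulated genes are the genes that cells switch on when interferon, a secreted antiviral signal, reaches them. A list of 40 genes of the interferon response was followed in chondrocytes isolated from mouse joint cartilage, on 8 microarrays. Besides interferon-stimulated genes it holds Ifnb1, which encodes an interferon, and Irf3, whose product acts before interferon is made. The members were chosen by gene symbol, and each was read from the probe set with 1 gene symbol, or from the brightest of these over the 8 arrays where it had several. This gave values for 39 of the 40 members among 22180 genes. Irf5 lay only on a probe set with several symbols and was not analysed here.

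The cells came from the femoral condyles and tibial plateaus of wild-type ICR mice aged 5 days and were grown as a monolayer. In 4 samples (Ad-null) they had been infected with a control adenovirus, and in the other 4 (Ad-Zip8) with an adenovirus expressing the zinc transporter ZIP8, the product of Slc39a8. RNA was collected 24 h after infection. Both groups therefore carried adenovirus, and uninfected cells were not analysed here, so every difference below is between infected cultures. The samples are labelled as biological replicates, with no word on whether cultures came from separate animals or from pools. The p-values thus measure the spread between these samples. The comparison asks what raised ZIP8 does to gene expression in chondrocytes.

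As background, viral nucleic acid is recognised by sensors such as Toll-like receptor 3 and MDA5 (Ifih1), which activate the factors IRF3 and IRF7 and with them the interferon-beta gene Ifnb1. Secreted interferon binds its receptor, and STAT2 and IRF9 then act at a promoter element called the interferon-stimulated response element (ISRE). Interferon-gamma, and several cytokines outside the interferon family, act through STAT dimers on a different element, the gamma-activated sequence (GAS). Irf1, a GAS-driven gene, is also a target of the inflammatory factor NF-kB.

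Values are on the log2 scale, where a difference of 1 is a doubling. Changes are Ad-Zip8 minus Ad-null, with a standard error (SE) from limma, a linear model fitted over all 22180 genes, and p-values adjusted by the Benjamini-Hochberg method over those genes. "Rose" and "fell" are used for an adjusted p under 0.05. Slc39a8 itself had means of 6.20 ± 0.07 and 11.13 ± 0.15 (SD, n = 4 each), in the direction of the labels. Over all genes, arrays of the same group had correlations of 0.991 to 0.993, and arrays of different groups of 0.979 to 0.986. Of 14 chondrocyte markers, the mean level was 11.7 to 11.8 on the Ad-null arrays and 11.2 to 11.4 on the Ad-Zip8 arrays, on a scale that ended at 13.8. Of the 14 markers 11 fell and 1, Prg4, rose, where 5.12% of all genes fell and 5.48% rose. The largest fall was that of the cartilage matrix gene Matn1 (log2 change -1.14, limma adjusted p = 0.000216). Col2a1 (log2 change -0.22, adjusted p = 0.0790) and Sox9 (log2 change -0.19, adjusted p = 0.137) did not pass. The median change of the 14 markers was -0.54. These markers thus moved between the same groups as the members did, and their part in the members' changes was not tested.

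A rise was called for 10 of the 39 members measured and a fall for 0, and 29 did not pass. Over all genes 5.48% rose and 5.12% fell. In RNA from whole cultures, a change in the number of cells of a type and a change of RNA per cell cannot be told apart. The limma test without adjustment found 11 of 39 members higher and 0 lower at a p under 0.05, against 10.3% and 12.4% of all genes. The members' median log2 change was 0.14 against -0.02 for all genes, and 34 of 39 changes were above 0. The 10 that rose were the membrane protein gene Ifitm3, the sensor genes Tlr3 and Ifih1, the factor genes Stat2 and Irf1, the ubiquitin-like modifier gene Isg15 and its ligase gene Herc6, and Rtp4, Parp9 and Ifi35. Of these, 1 (Ifitm3) changed more than 2-fold, and the others rose between 1.22-fold and 1.70-fold. The groups lay apart with Ad-Zip8 above in 10 of the 39 members, the same 10 genes, against 7.89% of all genes, and with Ad-Zip8 below in 0 of 39, against 9.74%. The count rested in part on single arrays: it was 6 without Ad-Zip8 replicate 1, 6 without Ad-Zip8 replicate 2 and 6 without Ad-null replicate 3.

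**Figure D1:**
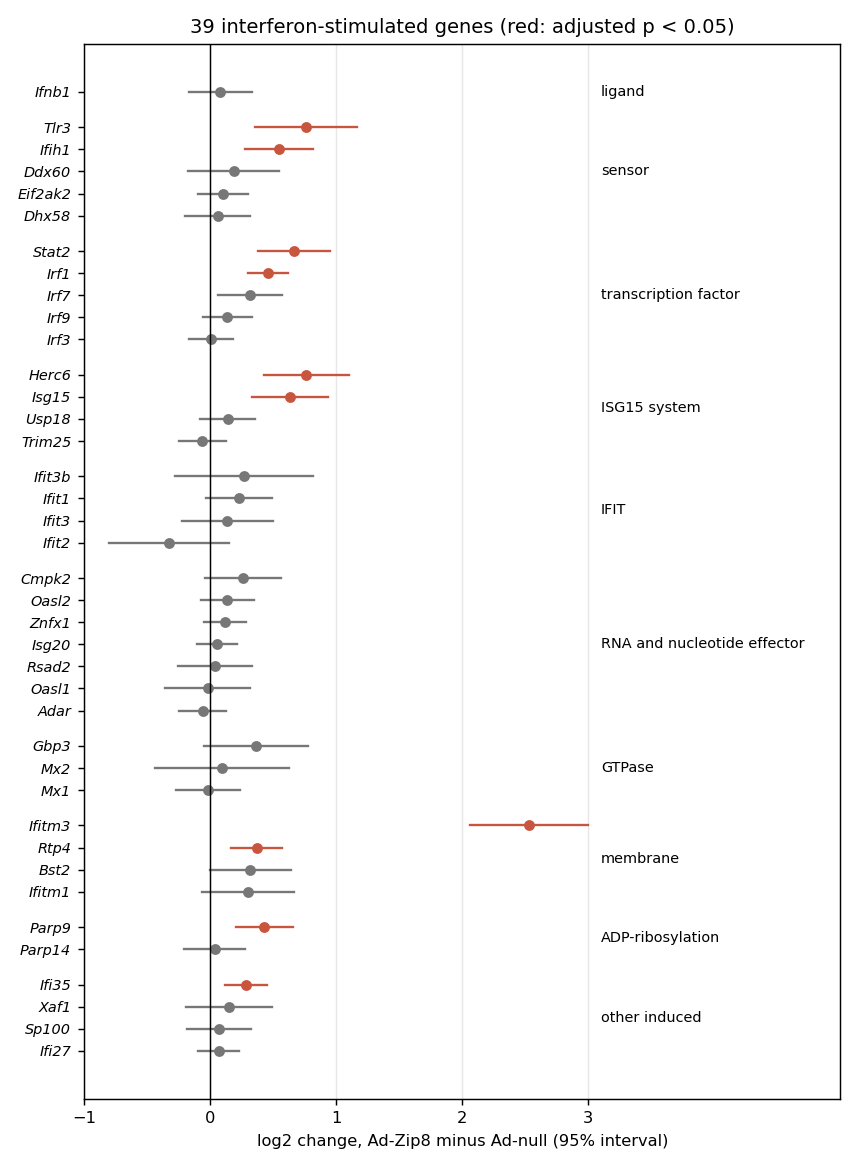
Log2 change (Ad-Zip8 minus Ad-null, 4 arrays each) of the 39 measured members, grouped by role, with points for the limma estimate and lines for its 95% interval; red marks an adjusted p under 0.05. Ifitm3 stands at 2.53, and the other 9 genes in red lie between 0.29 and 0.76.

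Promoter sequences are shown for the members that hold the core of the ISRE, the element through which type I interferon acts, because members with it were found both among those that rose and among those that did not pass. The RefSeq promoter table (GRCm38.p6) held 32 of the 40 members; Dhx58, Usp18, Mx1, Mx2, Rtp4, Parp9, Parp14 and Ifi27 had no entry. The 250 bases before each start site were searched on both strands for the ISRE core, written here as GAAA followed after any 2 bases by GAAA (TTTC, any 2 bases and TTTC on the other strand), and for the GAS core TTCNNNGAA, which reads the same on both strands. Where a gene had several promoter entries, a match in any of them counted. Of the 32 members, 9 (28.1%) held the ISRE core, against 3.46% of the 27025 genes in the table. The GAS core was in 5 of 32 (15.6%), against 8.13% of all genes. A match is a description of the letters and not a site of binding. The ISRE core is in capitals below, with 10 bases on either side, written 5′ to 3′ along the gene's strand. After the last match of Ddx60 fewer bases are shown, as the window ends there. Stat2 and Isg15 rose; the other 7 did not pass.
Stat2 (chr10:128270266-128270295, plus strand): cgcaccctggTTTCAGTTTCctttccctag
Isg15 (chr4:156200865-156200906, minus strand): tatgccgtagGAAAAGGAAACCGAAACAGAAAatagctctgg
Ifit1 (chr19:34640775-34640823, plus strand): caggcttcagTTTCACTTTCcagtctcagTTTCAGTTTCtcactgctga
Ifit3 (chr19:34583363-34583426, plus strand): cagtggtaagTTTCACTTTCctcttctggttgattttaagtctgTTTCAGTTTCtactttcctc
Ifit3b (chr19:34607759-34607822, plus strand): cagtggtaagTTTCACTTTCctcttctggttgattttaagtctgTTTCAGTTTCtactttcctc
Rsad2 (chr12:26456553-26456582, minus strand): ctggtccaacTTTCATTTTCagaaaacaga
Ddx60 (chr8:61928024-61928086, plus strand): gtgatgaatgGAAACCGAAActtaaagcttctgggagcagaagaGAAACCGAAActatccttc
Gbp3 (chr3:142559989-142560024, plus strand): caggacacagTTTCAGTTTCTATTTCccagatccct
Bst2 (chr8:71537577-71537612, minus strand): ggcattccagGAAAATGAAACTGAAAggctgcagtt

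The Isg15 stretch holds 3 overlapping matches, those of Gbp3 and Bst2 hold 2 overlapping ones, and Ifit1, Ifit3, Ifit3b and Ddx60 hold 2 separate ones. Ifit3 and Ifit3b read the same over the stretch shown. Among the 8 members that rose and had a promoter entry, 2 held the ISRE core (25.0%), against 7 of 23 (30.4%) among those that did not pass. With so few genes these shares cannot be told apart, and the same holds for the GAS counts that follow. The GAS core was in 1 of the 8 that rose, Irf1, and in 4 of the 23 others (Eif2ak2, Ifit2, Isg20 and Bst2), where in Bst2 it overlaps the ISRE matches. Irf1 and Ifit2 had 2 promoter entries each and Isg20 had 3, and in each gene 1 entry held the GAS core. Likewise 1 of the 2 entries of Gbp3 held the ISRE core. The Irf1 stretch has the GAS core in capitals.
Irf1 (chr11:53769914-53769942, plus strand): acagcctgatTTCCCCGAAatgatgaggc

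The member with the largest change, Ifitm3, had neither core in its 250 bases, which are given whole and with no capitals since no match was found. It says only that these letters are not in this window.
Ifitm3 (chr7:141010745-141010994, minus strand): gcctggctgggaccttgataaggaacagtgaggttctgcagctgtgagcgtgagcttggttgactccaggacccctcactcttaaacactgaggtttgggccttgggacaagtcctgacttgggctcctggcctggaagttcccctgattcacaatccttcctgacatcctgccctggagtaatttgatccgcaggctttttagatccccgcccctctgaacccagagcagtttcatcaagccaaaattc

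Ifitm3 encodes a membrane protein that restricts the entry of enveloped viruses at the endosome. It read 8.22, 8.13, 7.36 and 8.20 on the Ad-null arrays 1 to 4 and 10.93, 10.42, 10.21 and 10.46 on the Ad-Zip8 arrays. Every Ad-Zip8 array was far above every Ad-null array, and replicate 3 was the lowest in both groups. The group means were 7.98 ± 0.41 and 10.51 ± 0.30 (SD, n = 4 each), which makes Ifitm3 5.77-fold higher (log2 change 2.53, SE 0.21, adjusted p = 6.16e-05). It was the 33rd largest increase among the 22180 genes, and its adjusted p stayed at or below 3.45e-04 with any 1 array left out.

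Ifitm3 lies in a cluster of related genes, and its neighbours were read for comparison. Ifitm1, a member with a related product, read 4.24, 4.95, 4.46 and 4.60 with Ad-null and 5.20, 4.72, 4.65 and 4.87 with Ad-Zip8, so the groups overlapped (log2 change 0.30, adjusted p = 0.326). Ifitm2, which is on the list of further type I interferon-stimulated genes and not a member, rose 2.59-fold (log2 change 1.37, SE 0.091, adjusted p = 1.7e-05). Ifitm5 and Ifitm6 were named after their values were seen, and had changes of 0.37 and -0.035 with adjusted p of 0.0815 and 0.900. Products of Ifitm1, Ifitm2 and Ifitm3 are alike in sequence, and whether probes of 1 gene also took up RNA of another could not be seen from these values, so the split between them is uncertain. The other membrane protein members were Bst2, whose product tethers budding virions to the cell, and Rtp4, which encodes a chaperone that helps receptors reach the cell surface. Bst2 was higher in each of the 4 same-numbered pairs but its groups overlapped (log2 change 0.32, SE 0.14, adjusted p = 0.227), and it passed with the replicate number as a block (adjusted p = 0.0288). Rtp4 read 5.30, 5.35, 5.21 and 5.07 and then 5.63, 5.77, 5.49 and 5.52, a separation of the groups by a small margin (log2 change 0.37, SE 0.092, adjusted p = 0.0294).

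**Figure D2:**
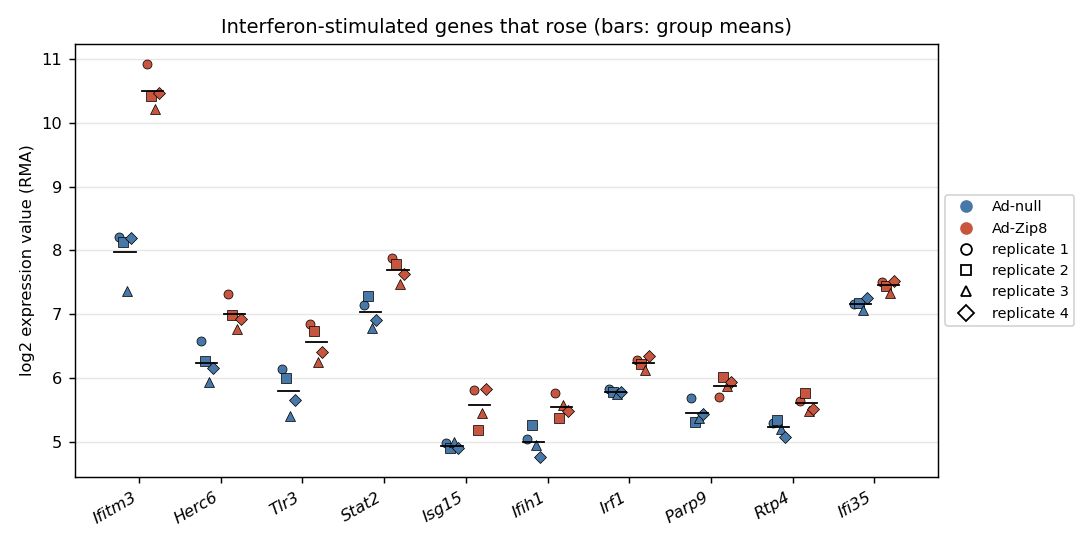
Log2 expression values of the 10 members that rose, on each of the 8 arrays (blue Ad-null, red Ad-Zip8; marker shape gives the replicate number; bars are group means). In each gene the lowest red point is above the highest blue one, by the least in Parp9, and replicate 3 (triangles) is the lowest Ad-Zip8 array in 7 of 10 genes.

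The ligand gene of the list did not pass, and 2 of its 5 sensor genes rose. Ifnb1, the interferon-beta gene, read 3.23, 3.48, 3.15 and 3.17 with Ad-null and 3.27, 3.30, 3.18 and 3.61 with Ad-Zip8. All 8 arrays lay within a narrow band well below the array medians of 5.04 to 5.11, where background compresses differences, and the groups overlapped (log2 change 0.080, 95% interval -0.17 to 0.33, adjusted p = 0.745). Tlr3, the endosomal receptor of double-stranded RNA, read 6.15, 6.00, 5.40 and 5.66 and then 6.84, 6.73, 6.25 and 6.41. Its lowest Ad-Zip8 array was just above its highest Ad-null array, while replicates 1 and 2 were the high ones in both groups (1.69-fold, log2 change 0.76, SE 0.18, adjusted p = 0.0251). Ifih1, which encodes the cytoplasmic RNA sensor MDA5, read 5.04, 5.27, 4.96 and 4.76 and then 5.77, 5.38, 5.58 and 5.49, again without overlap (1.46-fold, log2 change 0.55, SE 0.12, adjusted p = 0.0176). Dhx58, whose product LGP2 modulates MDA5, had a change of 0.061, the helicase gene Ddx60 of 0.19, and Eif2ak2, which encodes the translation-arresting kinase PKR, of 0.10, with adjusted p of 0.559 to 0.819.

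Among the transcription factors, Stat2 and Irf1 rose and Irf3, Irf7 and Irf9 did not pass. Stat2, which encodes the subunit particular to type I and type III interferon signalling, read 7.15, 7.28, 6.79 and 6.91 with Ad-null and 7.88, 7.79, 7.48 and 7.63 with Ad-Zip8. The groups were apart on all arrays (1.58-fold, log2 change 0.66, SE 0.13, adjusted p = 0.00814). Irf1 read 5.83, 5.78, 5.75 and 5.78 and then 6.29, 6.21, 6.13 and 6.34. Its arrays were tight in both groups, so that a modest change stood well clear of the spread (1.38-fold, log2 change 0.46, SE 0.071, adjusted p = 0.00243). Irf9, the DNA-binding partner of Stat2, read 7.41, 7.12, 7.09 and 7.17 and then 7.34, 7.41, 7.25 and 7.33, with overlap between the groups (log2 change 0.14, 95% interval -0.054 to 0.33, adjusted p = 0.401). Irf7, the factor that interferon itself induces to amplify the response, read 5.51, 5.23, 5.53 and 5.67 and then 5.82, 5.81, 5.99 and 5.59. It was higher on Ad-Zip8 arrays 1 to 3 than on any Ad-null array, with array 4 inside the Ad-null range, and it did not pass (log2 change 0.32, 95% interval 0.061 to 0.57, adjusted p = 0.125; 0.0761 to 0.257 with 1 array left out). Irf3, which is present before infection and acts by phosphorylation, read 7.34, 7.25, 7.08 and 7.21 and then 7.33, 7.24, 7.21 and 7.14, with nearly equal means (log2 change 0.0073, 95% interval -0.17 to 0.18, adjusted p = 0.972). Its sign turned when arrays were centred on a common median (-0.014).

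In the ISG15 system a ubiquitin-like protein is attached to other proteins. Isg15, the modifier gene, read 4.98, 4.90, 4.99 and 4.90 with Ad-null and 5.81, 5.19, 5.46 and 5.83 with Ad-Zip8. The Ad-null arrays were almost level, whereas the Ad-Zip8 arrays spread over a wider range with replicate 2 lowest (1.55-fold, log2 change 0.63, SE 0.14, adjusted p = 0.0150). Its adjusted p was 0.00245 to 0.0459 with 1 array left out. Herc6, which encodes the main mouse ligase for ISG15, read 6.58, 6.27, 5.94 and 6.16 and then 7.33, 6.98, 6.77 and 6.92, and replicate 1 was the highest and replicate 3 the lowest in both groups (1.70-fold, log2 change 0.76, SE 0.15, adjusted p = 0.00978). Usp18, whose product removes ISG15 and restrains the interferon receptor, had a change of 0.14 (95% interval -0.076 to 0.36, adjusted p = 0.455), and Trim25, a ubiquitin ligase gene of the RIG-I pathway, of -0.064 (adjusted p = 0.728).

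Of the 4 Ifit genes, which encode proteins that bind foreign RNA, 0 passed, with 0 also at an unadjusted limma p under 0.05. Over all genes 10.6% passed, and 10.3% were higher and 12.4% lower without adjustment. A count of 0 among 4 genes cannot be told from those shares. Ifit1 read 5.00, 5.11, 5.46 and 5.34 and then 5.25, 5.54, 5.59 and 5.45, with overlap (log2 change 0.23, 95% interval -0.028 to 0.49, adjusted p = 0.281). Ifit2 read 5.44, 5.79, 4.75 and 5.32 and then 5.16, 5.21, 4.58 and 5.04, lower in each same-numbered pair but with wide spread inside both groups (log2 change -0.33, 95% interval -0.80 to 0.15, adjusted p = 0.423). Ifit3 and Ifit3b had changes of 0.14 and 0.27. Both are near-identical copies, so the reading of each is uncertain. Rsad2, which encodes the nucleotide-modifying antiviral enzyme viperin, read 4.68, 5.09, 5.13 and 5.24 and then 5.08, 5.19, 5.19 and 4.83, and its groups overlapped (log2 change 0.037, 95% interval -0.26 to 0.33, adjusted p = 0.908).

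Its neighbour Cmpk2, a mitochondrial nucleotide kinase gene, had a change of 0.26 (adjusted p = 0.289). Oasl1 and Oasl2, genes of the oligoadenylate synthetase-like family, had changes of -0.019 and 0.14. The exonuclease gene Isg20 (0.057), the RNA-editing enzyme gene Adar (-0.059) and the helicase gene Znfx1 (0.12) completed a group of 7 RNA and nucleotide effectors, of which 0 passed, also at an unadjusted p under 0.05. Of the large GTPase genes, Mx1 read 3.11, 3.46, 3.14 and 3.06 and then 3.20, 3.39, 3.13 and 2.98, far below the array medians on all 8 arrays and with overlapping groups (log2 change -0.016, 95% interval -0.27 to 0.24, adjusted p = 0.957). Mx2 had a change of 0.10 and Gbp3, a guanylate-binding protein gene, of 0.36 (adjusted p = 0.283). Gbp3 passed without Ad-Zip8 replicate 3 (adjusted p = 0.0464), its lowest Ad-Zip8 array. The 3 GTPase genes had 0 calls, also at an unadjusted p under 0.05. Over all genes 10.6% passed, and 10.3% were higher and 12.4% lower without adjustment. Counts of 0 among 7 effector genes and 3 GTPase genes cannot be told from those shares.

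**Figure D3:**
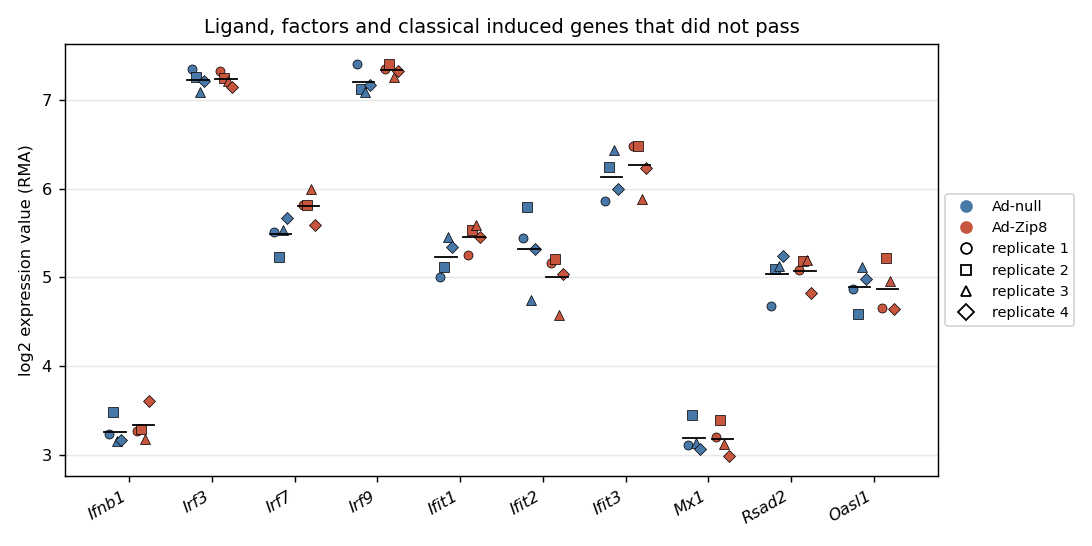
Log2 expression values on each of the 8 arrays for Ifnb1, 3 interferon regulatory factors and 6 classical induced genes that did not pass (blue Ad-null, red Ad-Zip8; shapes give the replicate number; bars are group means). Red and blue points overlap in each gene; Ifnb1 and Mx1 lie near 3, below the array medians.

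Parp9 and Parp14 encode ADP-ribosylation proteins that modulate interferon signalling and lie close together in the genome. Parp9 read 5.69, 5.31, 5.38 and 5.43 and then 5.70, 6.02, 5.88 and 5.93, where the highest Ad-null array almost met the lowest Ad-Zip8 array (1.35-fold, log2 change 0.43, SE 0.10, adjusted p = 0.0245; 0.0729 with the replicate number as a block). Parp14 did not pass (log2 change 0.036, 95% interval -0.20 to 0.28, adjusted p = 0.891). Of the remaining members, Ifi35, whose product pairs with other interferon-induced proteins, read 7.15, 7.17, 7.07 and 7.26 and then 7.50, 7.45, 7.33 and 7.52, the smallest change among the calls (1.22-fold, log2 change 0.29, SE 0.075, adjusted p = 0.0369). The dimmer of its 2 probe sets had a change of 0.12 (SE 0.10), and with the mean of both the adjusted p was 0.100. Ifi27 (0.069), the apoptosis-related gene Xaf1 (0.15) and the nuclear body gene Sp100 (0.074) did not pass. The 4 probe sets of Sp100 had changes of -0.17 to 0.07.

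The 10 calls were not equally stable. Herc6, Ifitm3, Irf1, Isg15 and Stat2 passed in each fit run on all genes. They also passed after dim genes were left out by their mean over all 8 arrays. Isg15 (Ad-null mean 4.94, Ad-Zip8 mean 5.58) cleared that filter only through its Ad-Zip8 arrays, so that fit is no separate evidence for it. With 1 array left out, Ifih1 missed the threshold without Ad-Zip8 replicate 1 (adjusted p = 0.0522). Tlr3 missed it without Ad-Zip8 replicate 1 or 2 or Ad-null replicate 3 or 4 (up to 0.0753). Rtp4 missed it without the same 4 arrays and without Ad-null replicate 1 (up to 0.0819). Parp9 passed only without Ad-Zip8 replicate 1 and without Ad-null replicate 1 (up to 0.0691 in the other 6 fits). Ifi35 passed only without Ad-Zip8 replicate 3 and without Ad-null replicate 4 (up to 0.0994 in the others), and it did not pass with arrays centred on a common median.

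**Figure D4:**
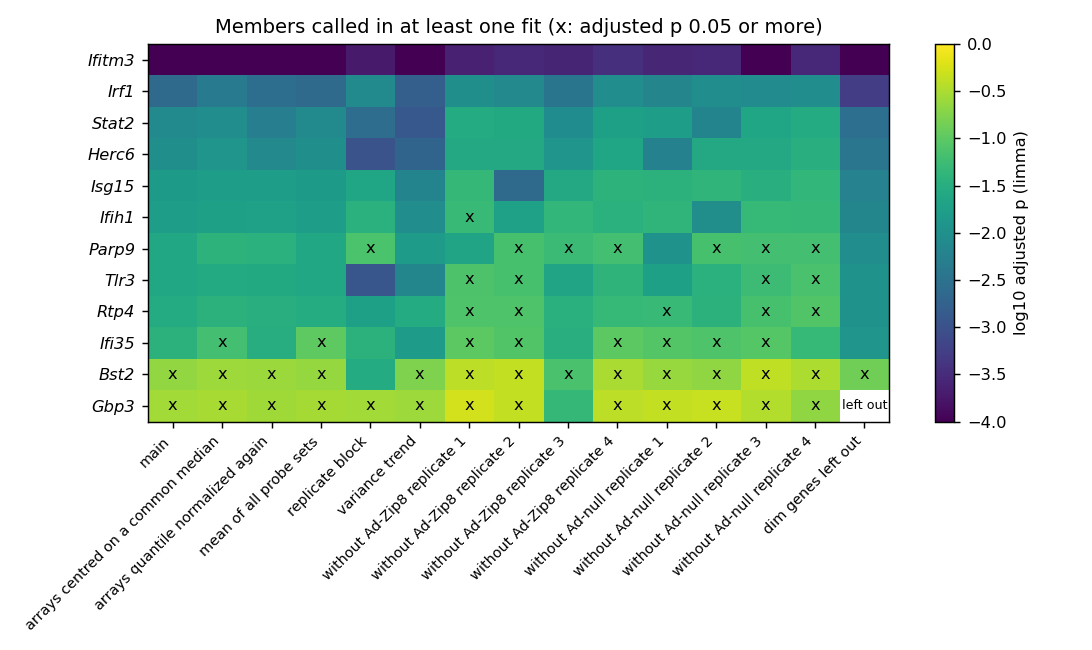
Log10 of the limma adjusted p (colour) for the 12 members called in at least 1 fit, in the fit of the report (main) and under the 14 alternatives; a cross marks an adjusted p of 0.05 or more. Ifitm3, Irf1, Stat2, Herc6 and Isg15 have no cross, whereas Parp9 and Ifi35 have 7 and 8.

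Among the 29 members that did not pass, changes ran from -0.33 (Ifit2) to 0.36 (Gbp3), 24 of them above 0, with a median of 0.10. The upper ends of their 95% intervals reached at most 0.81 (Ifit3b), so a doubling of the measured value lay outside the interval of each of the 29. A smaller change could not be told from the spread between samples. Of these 29, 12 had a mean over all 8 arrays below 5.08, the median of all values. At such values background compresses differences, so these intervals are for the measured values and not for the RNA. None of the 10 that rose had such a mean, but a rise itself lifts it. The Ad-null means of Isg15 (4.94) and Ifih1 (5.01) were below 5.08, so their folds too are for the measured values.

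The pathway around the members was read from 5 further lists with 106 genes, of which 89 were measured. Their median log2 change was 0.11, and 17 of them rose, 1 fell and 71 did not pass. Over all genes the median was -0.02, and 5.48% rose and 5.12% fell. Of 10 interferon ligand genes, 0 passed, with 0 at an unadjusted limma p under 0.05 and changes of -0.23 to 0.11. As 10.6% of all genes passed in either direction, 0 of 10 calls cannot be told from that share. Of 14 receptor and signalling genes, 5 rose and 0 fell (6 of the 14 had an unadjusted p under 0.05). Ifnar2, 1 chain of the type I interferon receptor, rose 1.54-fold (log2 change 0.63, SE 0.083, adjusted p = 0.000966), whereas Ifnar1, the other chain, did not pass (log2 change 0.046, 95% interval -0.11 to 0.20, adjusted p = 0.769). Ifngr2, a chain of the interferon-gamma receptor, rose 1.41-fold (adjusted p = 0.0112). The list also holds 4 genes whose products restrain JAK-STAT signalling, of which 2 rose. These were Socs3, at 2.60-fold (adjusted p = 1.7e-05, log2 change 1.38), and the phosphatase gene Ptpn2, at 2.30-fold (adjusted p = 2.2e-05, log2 change 1.20). Socs1 and Pias1 did not pass, with log2 changes of 0.11 (adjusted p = 0.587) and -0.10 (adjusted p = 0.469).

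Of 13 genes of nucleic acid sensing, 3 rose and 10 did not pass, where 5.48% of all genes rose and 5.12% fell. Ifi204, a DNA sensor gene of a family with close copies, rose 6.31-fold (log2 change 2.66, SE 0.20, adjusted p = 3.93e-05) in the measured values. Its Ad-null mean of 3.34 lies where background compresses differences, so this fold is for the measured values and not for the RNA. Myd88, the adaptor gene of Toll-like receptors and of the interleukin 1 receptor, rose 1.60-fold (adjusted p = 0.00409). The kinase gene Ikbke rose 1.57-fold (adjusted p = 0.0192), though not without Ad-null replicate 2 or 3 (up to 0.0535). Over 32 further type I interferon-stimulated genes the median change was 0.01, and 4 rose, 1 fell and 27 did not pass. Beside Ifitm2, the secreted glycoprotein gene Lgals3bp rose 1.42-fold (adjusted p = 0.0129), and Zc3hav1, which encodes the zinc-finger antiviral protein ZAP, rose 1.24-fold (adjusted p = 0.0178), though not without Ad-Zip8 replicate 2 or Ad-null replicate 2 (up to 0.0558). Tor3a was the 1 gene that fell (1.48-fold, log2 change -0.56, SE 0.095, adjusted p = 0.00398).

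Over 20 genes typical of the response to interferon-gamma the median change was 0.22, and 5 rose and 15 did not pass, where 5.48% of all genes rose. Serping1, the gene of the complement C1 inhibitor, read 5.32, 4.71, 4.72 and 4.80 and then 7.83, 6.67, 7.09 and 7.40, so that the groups were far apart (5.13-fold, log2 change 2.36, SE 0.23, adjusted p = 0.000158). The GTPase genes Gbp7 (1.92-fold, adjusted p = 0.00426), Igtp (1.44-fold, adjusted p = 0.00727) and Irgm1 (1.42-fold, adjusted p = 0.00731) rose as well. These GTPase genes belong to families with close copies. The Ad-null means of Serping1 (4.89), Gbp7 (5.01), Igtp (4.23) and Irgm1 (4.80) lie below 5.08, the median of all values. Background compresses differences there, so these folds are for the measured values and not for the RNA. For comparison, of 24 inflammatory genes 20 rose and 0 fell, with a median log2 change of 1.18 and 21 at an unadjusted limma p under 0.05. The lists, this one included, were chosen with earlier results of these data known, so the contrast between them is no independent evidence. The difference between the lists was not tested.

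**Figure D5:**
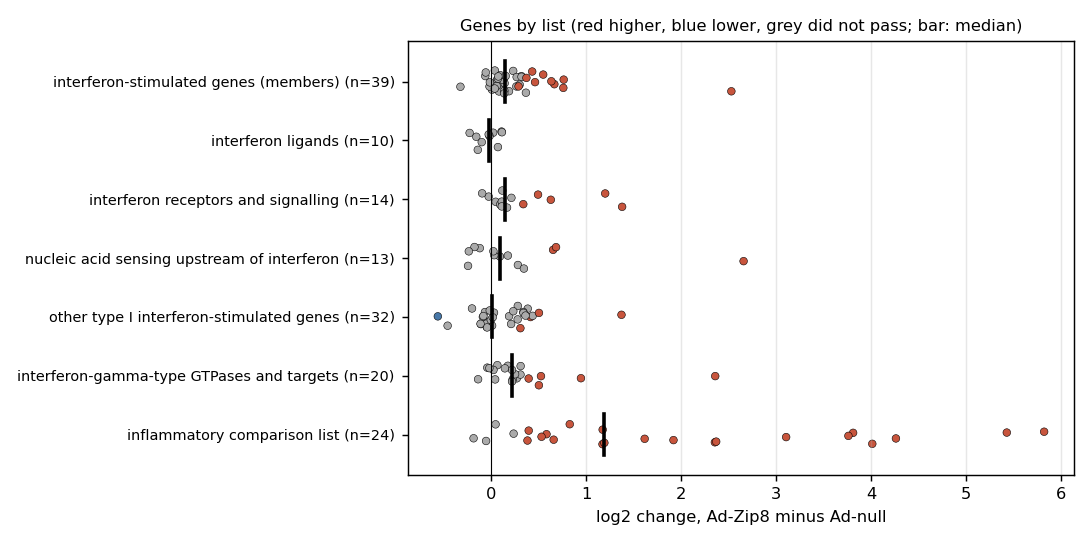
Log2 change (Ad-Zip8 minus Ad-null) of single genes in the member list, in 5 further interferon lists and in a list of inflammatory genes; red rose, blue fell, grey did not pass, and the bar is the list's median. The medians of the interferon lists lie between -0.02 and 0.22, and that of the inflammatory list at 1.18. The lists were chosen with earlier results of these data known.

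Markers of other cell types were read beside these results, where 5.48% of all genes rose and 5.12% fell. Of 14 macrophage and monocyte markers 2 rose (Cd14 and Cd68), 1 fell (Laptm5) and 11 did not pass, and their mean level was 4.85 to 5.01 on the Ad-null arrays and 5.01 to 5.07 on the Ad-Zip8 arrays. Of 9 dendritic cell markers 1 rose (Bst1, log2 change 3.02) and 8 did not pass, with mean levels of 5.82 to 5.99 and 6.18 to 6.21. The higher mean level came from Bst1 alone. The median change of the list was -0.04, and 4 of its 9 changes were above 0. None of the 9 lymphocyte markers passed, with 1 at an unadjusted limma p under 0.05 and mean levels of 4.28 to 4.44 and 4.27 to 4.55. Of 10 fibroblast and endothelial markers 3 rose (Dcn, Lum and Pdgfra) and 1 fell (Col1a2), with mean levels of 7.48 to 7.60 and 7.72 to 7.92. The 3 that rose, with log2 changes of 0.70, 0.93 and 0.86, are fibroblast markers, as is Col1a2. The endothelial markers Pecam1, Cdh5, Kdr and Tek did not pass. The pan-leukocyte gene Ptprc had group means of 3.39 and 3.22. The array gives no calls of absence, and the part of these cells in the changes of the members was not tested.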

How the data were processed

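Total RNA from 8 chondrocyte cultures (Ad-null 4, Ad-Zip8 4) was labelled with biotin by a whole-transcript kit, per the labels' protocols. For each array the authors deposited log2 values, 1 for every probe set. Per the submitters' processing notes these came from RMA, a method that subtracts background and gives all arrays a like distribution. Not given in the sources used here are its version, the probe set annotation and the genome build. Of 41345 probe sets, 23521 had 1 gene symbol, 1814 had several and 16010 had none; 23328 of the 23521 had their Entrez identifier in the RefSeq table (GRCm38.p6), and 0 symbols changed. For 1082 genes with several probe sets the brightest was used, which gave 22180 genes. Values ran from 0.85 to 13.8. The number of arrays limits the precision.

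Groups were compared by limma's two-sided moderated test (version 3.58.1, R 4.3.3) with no covariate and no filter, Benjamini-Hochberg adjustment over all genes and a threshold of 0.05; the fit was tested on simulated data. Members and lists were chosen with earlier results of these data known. Named in full are members that passed, Ifnb1, Irf3, Irf7, Irf9, Stat2, Isg15, Ifit1, Mx1 and Rsad2, and of each further list up to 4 called genes with the smallest adjusted p, with Ifnar1 and Ifnar2. Replicate numbers 1 to 4 recur in both groups with no stated meaning. Deviations from the group means correlated at 0.11 to 0.37 between same-numbered arrays and at -0.27 to 0.16 between others, so an alternative fit used the number as a block, a pairing inferred from the data. The 14 alternatives were that block, a filter on dim genes, repeated quantile normalization, centring on a common median, a variance trend, the mean of all probe sets of a gene, and each array left out.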

Additional observations from a re-analysis of the deposited data

Results flagged for a closer look

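In each of the 78 groups of 4 arrays that the 39 members give, the highest and the lowest array were compared with the others by Dixon's ratio of gap to range, which picks about 1 group in 20 by chance. It picked 4. Ifitm3 read 7.36 on Ad-null replicate 3, against 8.13 to 8.22 on the other Ad-null arrays; without that array its log2 change was 2.32. Xaf1 read 5.47 on Ad-null replicate 2, against 4.96 to 4.99 on the others. Cmpk2 read 5.33 on Ad-Zip8 replicate 3, against 5.77 to 5.86. Parp14 read 4.49 on Ad-Zip8 replicate 4, against 4.80 to 4.86.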

How the results depend on the processing

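Across the 8 fits with 1 array left out the count of members that rose was 6 to 10, and 0 fell in each of the 14 alternatives. It was 9 or 10 in the 6 other alternatives. These include the filter on dim genes, which Isg15 and Ifih1 cleared only through their Ad-Zip8 arrays (Ad-null means 4.94 and 5.01). That fit is no separate evidence for these 2 genes. With the replicate number as a block the count was 10, with Bst2 passing and Parp9 not (limma adjusted p = 0.0729). No other member's call changed with the block. Of the other pathway genes 18 passed, and 14 to 22 did under the alternatives. Among them Serping1 and Gbp7 (Ad-null means 4.89 and 5.01) likewise cleared the filter on dim genes only through their Ad-Zip8 arrays. Signs turned only in members near 0 that passed in no fit: Irf3 (-0.014) with arrays centred on a common median and Sp100 (-0.025) with the mean of all probe sets. With 1 array left out, changes ran over -0.011 to 0.15 for Ifnb1, -0.014 to 0.16 for Dhx58, -0.040 to 0.047 for Irf3, -0.13 to 0.057 for Oasl1, -0.081 to 0.12 for Rsad2, -0.087 to 0.072 for Mx1, -0.072 to 0.26 for Mx2, -0.013 to 0.12 for Parp14 and -0.019 to 0.15 for Sp100. Centring moved the median of all genes by -0.02. The 4 arrays a group and the low values of 12 members limit the precision. Causes were not tested.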

Other observations

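Replicate 3 was often the lowest array of its group. Of the 10 members that rose, Ad-null replicate 3 was the lowest Ad-null array for 6 and Ad-Zip8 replicate 3 the lowest Ad-Zip8 array for 7. Over all 39 members these counts were 17 (43.6%) and 18 (46.2%), against 31.8% and 28.6% of all genes.

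Genes next to members, named after their values were seen, add to the families above. Between Ifit3 and Ifit1 lie Ifit1bl1 and Ifit1bl2, which had log2 changes of 0.46 (adjusted p = 0.218) and -0.094 (adjusted p = 0.761). In the Ifit cluster 0 of the 6 genes read thus passed limma's test, against 10.6% of all genes, with 1 (Ifit1bl1) at an unadjusted p under 0.05. A count of 0 among 6 genes cannot be told from that share. Beside Gbp3, which did not pass, lie Gbp5 and Gbp7, which rose by 0.39 and 0.94 on the log2 scale, and Gbp2b, which did not pass (0.25, adjusted p = 0.150). The Ad-null means of Gbp5 (4.07) and Gbp7 (5.01) lie where background compresses differences.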
